A study of Mus musculus with 20 samples.

Results

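Whole kidneys of mice that received Hemin and then ischemia/reperfusion injury (the group IRI+Hemin, 4 arrays) were compared with kidneys of untouched mice (Control, 4 arrays), that is 8 of the 20 arrays of the study. The arrays were chosen by their sample titles alone. All animals were male C57BL/6 mice, 8 to 12 weeks old. IRI+Hemin animals were injected intraperitoneally with 25 mg/kg of Hemin 24 h before surgery, both renal pedicles were clamped for 45 min under Ketamine-Xylazine, and the kidneys were taken 6 h after reperfusion. Control animals had neither surgery nor injection, so that anesthesia, laparotomy, ischemia, reperfusion and the drug all separate these 2 groups, and their parts in a difference cannot be told apart. Means of the groups IRI (the same surgery without Hemin, 4 arrays) and Hemin (the drug without surgery, 4 arrays) are set beside them. No source used here says whether animals were pooled, and p-values measure the spread between arrays of a group.

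Clamping of the renal artery starves the tubule of oxygen, and reperfusion adds oxidant stress and inflammation. The proximal tubule, which depends on fatty acid oxidation in mitochondria, is the segment known to suffer most. Surviving tubule cells switch on immediate early transcription factors, chaperones, cytokines and injury markers such as Lcn2 and Havcr1, while transport and metabolic genes are known to decline. Hemin is an iron porphyrin used to induce heme oxygenase 1 (Hmox1), which splits heme into biliverdin, carbon monoxide and iron. Its gene is held down by the repressor Bach1 and switched on by NRF2, a transcription factor that also controls glutathione and thioredoxin genes.

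The values are log2 expression, where 0 is the 75th percentile of an array, and differences are IRI+Hemin minus Control on that scale unless said otherwise. The 4 arrays of a group shared 1 slide. Control and IRI were scanned on the first day, IRI+Hemin on the second, and Hemin and IPC+IRI (ischemic pre-conditioning before injury, 4 arrays) on the third, so slide, scan day and treatment cannot be told apart. The 75th percentile of intensity was 146.7 to 220.5 in Control and 173.8 to 357.9 in IRI+Hemin, and the mean log2 intensity of the spike-in probes was 9.27 to 11 and 8.40 to 8.82. Arrays correlated at 0.979 to 0.992 within Control, 0.979 to 0.991 within IRI+Hemin and 0.956 to 0.967 between the groups (Pearson's r over genes, which are not independent). The kidney markers Umod, Kap, Slc34a1 and Lrp2 were well above background, a flag of the scanner software, on all 8 arrays.

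Within Control, replicate 2 was unlike the other 3 arrays and had the lowest 75th percentile and spike-in signal of its group. Lars2, a mitochondrial leucyl-tRNA synthetase, was at 4.01, 8.98, 3.97 and 3.95 in the 4 Control arrays and at 8.49, 8.72, 8.24 and 8.58 in IRI+Hemin. The ribosomal RNA gene Rn18s was at 5.14, 7.74, 4.55 and 4.95 in Control and 7.59, 7.56, 7.23 and 7.67 in IRI+Hemin. In these genes Control replicate 2 had the level of the IRI+Hemin arrays, and so did the Hemin group (means 8.72 and 7.49) and the IPC+IRI group (means 8.70 and 7.65), while IRI (means 3.87 and 4.93) had that of the other Control arrays. The difference of Lars2 was 3.28 (adjusted p = 0.00141) and without Control replicate 2 it was 4.53 (adjusted p = 4.58e-09), and that of Rn18s was 1.92 (adjusted p = 0.00788) and 2.63 (adjusted p = 7.39e-05). Slc4a7, a sodium bicarbonate cotransporter, had the opposite pattern, with 3.99, 1.19, 4.05 and 3.89 in Control, 0.26, 0.20, -0.047 and 1.25 in IRI+Hemin and a Hemin mean of -0.45. Its probes gave differences from -4.13 to 2.11. In the same array the adipocyte gene Adipoq was at 2.46 against -7.08 to -6.78 in the other Control arrays, and the sum of hemoglobin and other erythroid markers was 153 against 44.7 to 62.2 on the linear scale. Of the 4217 genes called below, Control replicate 2 lay nearer to the IRI+Hemin mean than to the mean of the other Control arrays in 517, and Control replicates 1, 3 and 4 in 177, 71 and 54. On the IRI+Hemin side, replicate 4 lay nearer to Control in 536 of them, and replicates 1 to 3 in 202, 123 and 120.

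**Figure D1:**
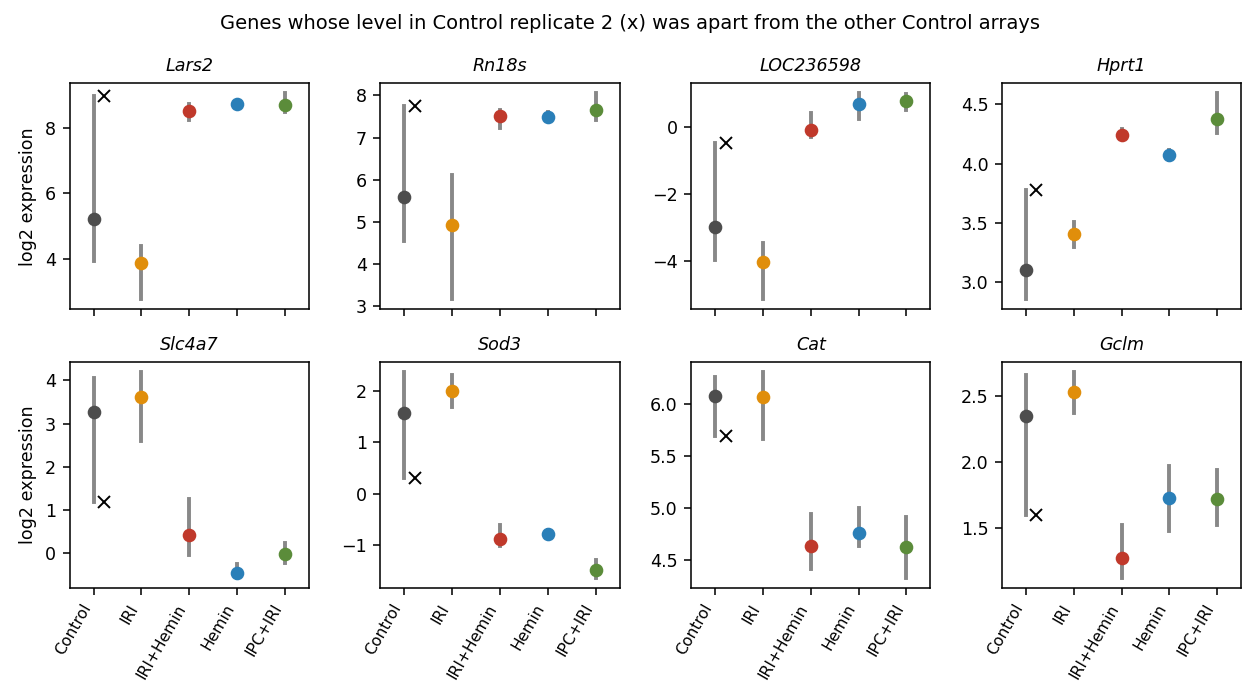
Log2 expression (vertical axes) of 8 genes in the 5 groups of the study. Dots are group means, bars run from the lowest to the highest of the 4 arrays, and the cross is Control replicate 2. In Lars2 and Rn18s the cross (8.98 and 7.74) sits at the level of IRI+Hemin, Hemin and IPC+IRI, far above the IRI mean (3.87 and 4.93).

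Of 18489 genes tested, 1543 (8.35%) were called higher and 2674 (14.5%) lower in IRI+Hemin than in Control, at an adjusted p below 0.05 and at least 2-fold (limma, Benjamini-Hochberg). Without the fold cutoff, 4513 were higher and 6142 lower, and at 3-fold, 618 and 1075. Leaving out Control replicate 2 gave 1790 higher and 2652 lower. The median difference of all tested genes was -0.10, and the middle 80% ran from -1.25 to 0.93. Lower calls were frequent among dim genes. When the tested genes were divided into 4 equal groups by mean level, 31.8% of the dimmest group were called lower and 2.94% of the brightest, while the share called higher moved only from 10.2% to 7.57%. Olfactory, vomeronasal and taste receptor genes, which belong to sensory organs, were among them, with 239 of 342 tested genes called lower and 1 higher, and a median difference of -1.64. With normexp background correction, which moves dim signals toward each other, 665 genes were called higher and 448 lower, and 593 and 427 of these were among the calls above. Of the 2674 lower genes 1494 were well above background on all 8 arrays, and of the 1543 higher genes 1078, beside 15370 of all 18489 tested. With normexp and these 15370 genes alone, a setting chosen after seeing the data, 652 were called higher and 417 lower. In IRI+Hemin against IRI, 7.45% of 17835 tested genes were called higher and 5.04% lower by the same rule.

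**Figure D2:**
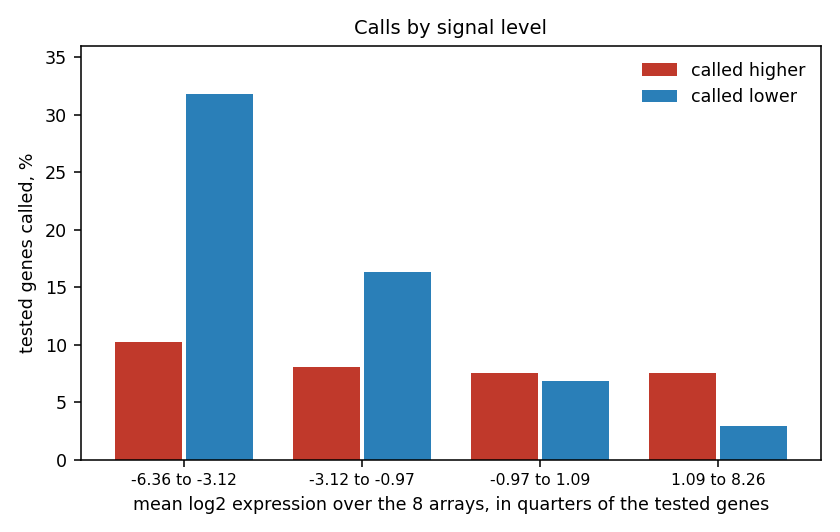
Share of tested genes called higher (red) or lower (blue) in IRI+Hemin than in Control, in percent, for 4 equal groups of genes ordered by mean log2 expression over the 8 arrays. The lower calls shrink from 31.8% in the dimmest group to 2.94% in the brightest, and the higher calls stay between 7.55% and 10.2%.

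The means of the other groups were set between Control and IRI+Hemin for the called genes. For the 1543 higher genes, the IRI mean lay nearer to IRI+Hemin than to Control in 60.4% and the Hemin mean in 25.4%. For the 2674 lower genes, these were 66.3% and 51.1%. The IPC+IRI mean lay nearer to IRI+Hemin in 90.3% of the higher and 86.9% of the lower genes. These are positions of means and not tests, and all of them use the Control arrays that made the calls.

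The 10 largest rises among genes well above background on all 8 arrays were those of Atf3, Tnfrsf12a, Maff, Chac1, Ch25h, Cdkn1a, Sphk1, Hmox1, Socs3 and Pdk4. Atf3, a transcription factor that cells make under many stresses, was at -3.44, -2.07, -2.76 and -2.98 in Control and at 2.83, 2.01, 2.40 and 4.29 in IRI+Hemin, 51.8-fold higher (log2 difference 5.70 ± 0.58 SE, adjusted p = 5.25e-07). Its probe lies on chromosome 1, 192994547 to 192994606 (mm9). Tnfrsf12a, the receptor of the cytokine TWEAK, went from 0.091, 0.92, -0.051 and -0.069 to 5.78, 5.99, 5.82 and 5.49 (difference 5.55, adjusted p = 8.2e-11), and it was also higher than in IRI (difference 0.99, adjusted p = 0.003). Control replicate 2 lay above the other Control arrays, and all IRI+Hemin arrays lay far above all Control arrays. Maff, a small MAF protein that pairs with NRF2 and BACH1 at target genes, rose by 5.52 (adjusted p = 3.51e-10), and Chac1, which breaks down glutathione, by 5.39 (adjusted p = 1.45e-09). Cdkn1a, the cell cycle inhibitor p21, was at -2.86, -0.89, -2.32 and -1.43 in Control and 2.98, 2.97, 2.83 and 2.37 in IRI+Hemin (difference 4.66, adjusted p = 2.8e-09).

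Further rises were those of Ch25h, which makes the oxysterol 25-hydroxycholesterol (4.87, adjusted p = 8.71e-09), Sphk1, a sphingosine kinase (4.48, adjusted p = 3.51e-10), and Socs3, the feedback inhibitor of cytokine receptors (4.42, adjusted p = 5.82e-09). Pdk4, which shuts pyruvate out of the citric acid cycle, was at 1.70, 2.27, 0.60 and 1.03 in Control and 5.52, 5.71, 5.74 and 5.53 in IRI+Hemin (difference 4.22, adjusted p = 2.17e-08), with the lowest IRI+Hemin array more than 3 log2 units above the highest Control array. In 9 of these 10 genes the IRI+Hemin level was not told apart from that of IRI (adjusted p between 0.124 and 0.944), and Tnfrsf12a was the exception. Every one of the 10 was far above the Hemin mean, by 3.87 to 5.93, with adjusted p of 6.25e-06 or lower. With each array left out in turn and under normexp, all 10 kept their direction and their side of the threshold.

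**Figure D3:**
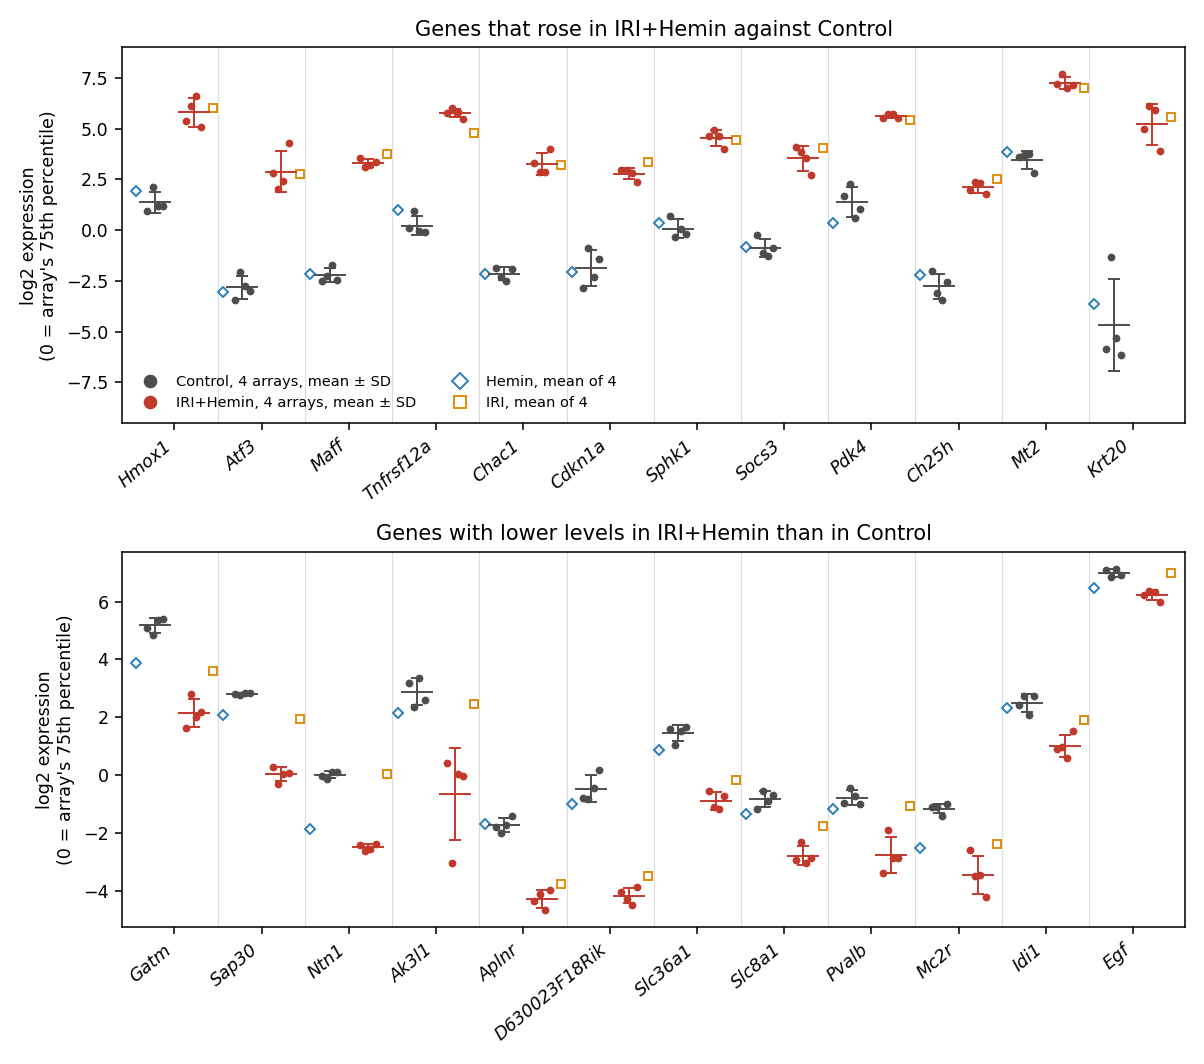
Log2 expression (vertical axes, 0 = the array's 75th percentile) of 12 genes that rose (upper panel) and 12 genes with lower levels (lower panel) in IRI+Hemin. Dots are arrays, lines and error bars the mean ± SD of 4 arrays, and open symbols the Hemin and IRI means. In the upper panel the IRI means lie closer to IRI+Hemin than to Control and the Hemin means closer to Control, with the IRI mean of Tnfrsf12a (4.78) below all its IRI+Hemin arrays, while in the lower panel Ntn1, Ak3l1 and Pvalb have IRI means (0.046, 2.48 and -1.07) near Control.

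The 10 largest falls by the same rule included fewer genes of known role. Gatm, the mitochondrial enzyme that begins creatine synthesis in the proximal tubule, was at 5.09, 4.85, 5.38 and 5.38 in Control and 1.64, 2.79, 2.00 and 2.18 in IRI+Hemin, a fall (difference -3.03 ± 0.23 SE, adjusted p = 2.31e-08). Its IRI mean was 3.60 and its Hemin mean 3.88, and IRI+Hemin lay below both (differences -1.45 and -1.73, adjusted p = 8.66e-05 and 1.41e-05). Sap30, a subunit of the Sin3 histone deacetylase complex, fell from 2.80, 2.77, 2.83 and 2.85 to 0.30, -0.29, 0.045 and 0.084 (difference -2.78, adjusted p = 2.42e-08), again below IRI (-1.92, adjusted p = 3.93e-06) and Hemin (-2.05, adjusted p = 1.19e-06). Gatm and Sap30 are thus examples of genes in which the combined group was lower than each of the groups that had the injury or the drug alone. The IPC+IRI means were 3.62 for Gatm and 0.89 for Sap30. In Sap30 IPC+IRI, which had no Hemin, thus also lay below the IRI and Hemin means. Each of these groups lay on its own slide. Ak3l1, now named Ak4, a mitochondrial adenylate kinase, was at 3.20, 2.37, 3.35 and 2.61 in Control and 0.44, -3.02, 0.026 and -0.03 in IRI+Hemin, where replicate 2 was far below the others (difference -3.53, adjusted p = 1.78e-05). Without that array the difference was -2.74 (adjusted p = 4.47e-07). Aplnr, the apelin receptor of endothelial cells, fell by 2.55 (adjusted p = 7.13e-08) and had an IRI mean of -3.75 and a Hemin mean of -1.69.

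Netrin 1 (Ntn1), a secreted guidance molecule, had Control values of -0.031, -0.14, 0.11 and 0.11 and IRI+Hemin values of -2.43, -2.61, -2.56 and -2.36 (difference -2.50, adjusted p = 3.51e-10). Its IRI mean was 0.046, its Hemin mean -1.86 and its IPC+IRI mean -2.01, so that Ntn1 was high in the groups scanned on the first day and low in the others. Its probes disagreed, with differences from -2.56 to 1.15. Kif20b, a mitotic kinesin (difference -3.20, adjusted p = 1.14e-05), likewise had probes from -3.87 to 0.61. Wdr86 and the RIKEN genes D630023F18Rik, 2310081J21Rik and 3110067C02Rik, for which no role is given here, fell by 2.99, 3.69, 3.51 and 2.68, with adjusted p of 5.01e-06 or lower.

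Heme and iron genes are given before the other groups, because Hemin is used to induce Hmox1. Hmox1 was at 0.96, 2.14, 1.18 and 1.18 in Control and 5.38, 6.12, 6.61 and 5.09 in IRI+Hemin, 21.6-fold higher (difference 4.43 ± 0.46 SE, adjusted p = 6.79e-07), with its probe on chromosome 8, 77624207 to 77624266 (mm9). The groups did not overlap. The Hemin mean was 1.93 and the IRI mean 6.03, and IRI+Hemin differed from IRI by -0.23 (adjusted p = 0.713). Of 24 tested heme and iron genes, 3 rose (Hmox1, the repressor Bach1 and the copper oxidase Cp) and 2 fell, against 8.35% and 14.5% of all genes, and the median difference was -0.11. The ferritin subunits Fth1 and Ftl1, which store iron, were not called (-0.14 and -0.077, adjusted p = 0.487 and 0.645). Hpx, which carries heme in plasma, and Steap3, a ferrireductase, fell by 1.24 and 1.55 (adjusted p = 7.54e-05 and 6.82e-06) and were no longer called with normexp, at -0.53 (adjusted p = 0.0569) and -0.54 (adjusted p = 0.066).

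Of 28 tested NRF2 targets, 6 rose and 2 fell (21.4% and 7.14%, beside 8.35% and 14.5% of all genes), against 3 and 4 with quantile normalization and 11 and 0 without normalization between arrays, with a median of 0.31. The risen members were Gclc, Mgst1, Osgin1, Sqstm1, Srxn1 and Txnrd1. Srxn1, which repairs peroxiredoxins, was at 1.56, 2.03, 1.60 and 1.77 in Control and 4.66, 4.98, 4.60 and 4.34 in IRI+Hemin (difference 2.91, adjusted p = 2.66e-09). The glutathione enzyme Gclc went from 4.12, 3.54, 3.86 and 3.60 to 5.49, 5.4, 5.47 and 5.25 (difference 1.62, adjusted p = 2.94e-05), above its IRI mean of 4.49 (difference 0.91, adjusted p = 0.0063). Its partner subunit Gclm went the other way, with Control at 2.48, 1.60, 2.66 and 2.65 and IRI+Hemin at 1.23, 1.13, 1.23 and 1.53 (difference -1.07, adjusted p = 0.000125). Gclm passed the 2-fold cutoff narrowly and missed it without Control replicate 3 (-0.97, adjusted p = 0.000718) or 4 (-0.97, adjusted p = 0.000723) and with normexp (-0.80, adjusted p = 0.00457), while without Control replicate 2 it was -1.32 (adjusted p = 5.54e-07). Txnrd1, thioredoxin reductase, rose by 1.26 (adjusted p = 4.8e-07), and Nqo1, a common readout of NRF2, differed by 0.28 (adjusted p = 0.275).

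None of 17 tested antioxidant enzymes was called higher, and 2 fell (11.8%, beside 14.5% of all genes). Catalase (Cat), the peroxisomal enzyme that destroys hydrogen peroxide, was at 6.17, 5.69, 6.19 and 6.26 in Control and 4.94, 4.41, 4.59 and 4.57 in IRI+Hemin (difference -1.45, adjusted p = 1.86e-06). Sod3, the extracellular superoxide dismutase, was at 1.62, 0.32, 2.37 and 1.99 and -1.01, -0.92, -0.97 and -0.61 (difference -2.45, adjusted p = 1.91e-06). In these 2 genes the IRI means (6.07 and 1.99) lay with Control, the Hemin means (4.76 and -0.78) and the IPC+IRI means (4.63 and -1.48) lay with IRI+Hemin, and Control replicate 2 was the lowest Control array. This is the arrangement of Lars2 and Slc4a7 over slides and scan days, whose part in it was not tested. The plasma glutathione peroxidase Gpx3 differed by -0.47 (adjusted p = 0.0133), which is less than the cutoff.

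The group with the highest share of risen genes, apart from the 2 ribosomal RNA genes, was that of immediate early and AP-1 transcription factors. Of its 27 tested genes, 23 were called higher (85.2%, beside 8.35% of all genes) and none lower, with a median of 2.16. Fosl1, a FOS-family partner of JUN, was at -4.53, -4.46, -4.14 and -4.90 in Control, where 1 of 4 arrays was well above background, and at 0.84, 1.3, 1.24 and 0.20 in IRI+Hemin (difference 5.4, adjusted p = 3.51e-10). Jun went from -0.28, 0.16, 0.96 and 0.59 to 1.98, 1.85, 1.71 and 1.59 (difference 1.43, adjusted p = 0.000119). Myc went from -0.26, -1.86, -1.28 and -1.29 to 1.12, 0.70, 1.19 and 1.64 (difference 2.33, adjusted p = 1.14e-06). For Fosl1, Jun and Myc the groups were separate on all arrays. The Control arrays of Fos were spread over -2.50, -3.89, -1.61 and -0.48 and overlapped with IRI+Hemin at 0.42, -0.71, -0.17 and 1.07 (difference 2.27, adjusted p = 0.00791). Egr1 was spread in the same way in Control (1.0, -0.16, 2.36 and 2.64), rose by 1.63 (adjusted p = 0.0168) and lost its call without Control replicate 2, at 1.09 (adjusted p = 0.0718).

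Against IRI, 9 of the 27 immediate early genes tested were called lower in IRI+Hemin and none higher, beside 5.04% and 7.45% of all genes. They were Fos (-1.74, adjusted p = 0.042), Fosl1 (-1.15, adjusted p = 0.0022), Myc (-1.71, adjusted p = 6.2e-05) and Fosb, Fosl2, Mafk, Ier2, Klf5 and Zfp36. Atf3 (0.12), Maff (-0.46) and Jun (-0.27) were not told apart from IRI (adjusted p = 0.882, 0.175 and 0.405). The IRI mean of Myc was 2.87, the IRI+Hemin mean 1.16 and the Control mean -1.17, which places it between the injured and the untouched kidney.

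Of 24 heat shock genes tested, 6 rose and 1 fell (25% and 4.17%, beside 8.35% and 14.5% of all genes), with a median of 0.015. The inducible chaperone Hspa1a was at 1.68, 2.96, 1.61 and 1.5 in Control and 3.50, 3.44, 3.74 and 4.64 in IRI+Hemin (difference 1.89, adjusted p = 0.000128), and without Control replicate 2, the highest Control array, it differed by 2.24 (adjusted p = 1.08e-05). Its near-identical neighbour Hspa1b, whose transcripts may share probes with it, rose by 1.67 (adjusted p = 0.000542). The small heat shock protein Hspb1 went from 0.81, 1.22, 0.34 and 0.58 to 2.93, 3.04, 2.84 and 1.86 (difference 1.93, adjusted p = 2.15e-05). Bag3, a co-chaperone of the HSP70 family, rose by 1.41 (adjusted p = 4.36e-08), with the IRI+Hemin arrays all within 2.19 to 2.33. The other risen members were Cryab and Hspb8. Hsph1 and Dnajb1, which work with HSP70, were 0.63 and 0.62 higher, under the cutoff (adjusted p = 0.00813 and 0.0194). Chordc1, a co-chaperone of HSP90, fell by 1.14 (adjusted p = 7.58e-06).

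The 250 bases upstream of the transcription starts of Hspa1a, Hspa1b, Hspb1 and Bag3 are shown because these heat shock genes rose together, with the core of the heat shock element (GAANNTTC) in capitals in the 3 sequences that hold it and the AP-1 site TGACTCA in capitals in Bag3. They are RefSeq sequences of build GRCm38.p6, read 5′ to 3′ on the gene's strand.
Hspa1a (chr17:34972157-34972406, minus strand): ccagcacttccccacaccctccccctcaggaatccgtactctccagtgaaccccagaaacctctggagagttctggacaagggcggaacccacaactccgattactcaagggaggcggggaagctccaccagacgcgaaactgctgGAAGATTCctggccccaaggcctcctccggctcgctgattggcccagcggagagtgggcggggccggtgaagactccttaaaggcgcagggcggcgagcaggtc
Hspa1b (chr17:34959239-34959488, minus strand): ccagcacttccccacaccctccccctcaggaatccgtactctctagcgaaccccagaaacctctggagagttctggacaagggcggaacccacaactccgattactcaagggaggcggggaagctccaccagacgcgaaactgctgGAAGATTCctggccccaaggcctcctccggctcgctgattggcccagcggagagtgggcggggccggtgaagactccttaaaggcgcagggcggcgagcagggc
Hspb1 (chr5:135887669-135887918, plus strand): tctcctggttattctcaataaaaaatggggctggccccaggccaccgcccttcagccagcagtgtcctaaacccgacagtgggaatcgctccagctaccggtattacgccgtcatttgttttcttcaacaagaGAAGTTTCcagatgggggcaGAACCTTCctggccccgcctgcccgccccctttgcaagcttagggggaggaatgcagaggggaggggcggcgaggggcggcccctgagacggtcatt
Bag3 (chr7:128523333-128523582, plus strand): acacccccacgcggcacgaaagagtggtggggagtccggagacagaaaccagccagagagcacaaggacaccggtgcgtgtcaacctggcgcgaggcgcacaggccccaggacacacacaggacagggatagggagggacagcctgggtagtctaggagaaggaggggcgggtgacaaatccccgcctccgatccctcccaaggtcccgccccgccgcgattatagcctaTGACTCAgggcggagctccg
The stretches of Hspa1a and Hspa1b differ at 3 of 250 bases, and in each the heat shock core begins 104 bases before the start. In Hspb1 a pair of cores begins 117 and 97 bases before the start, and in Bag3 the AP-1 site begins 20 bases before it. Over 32851 promoters of this length, GAANNTTC was found on either strand in 6.69%, TGACTCA or TGAGTCA (AP-1) in 4.46%, TGACNNNGC (the core of the antioxidant response element) in 10.2% and TGACGTCA (CRE) in 1.55%. Among 14 promoters of 10 key heat shock and immediate early genes that the table holds, the heat shock core was in 4, the antioxidant core in 4, AP-1 in 1 and CRE in 1. Besides Hspa1a, Hspa1b and Hspb1, the heat shock core was in the promoter of Jun. These promoters are not independent. The antioxidant count includes both starts of Hsph1, whose stretches overlap and hold the same sites, and the heat shock count includes the near-identical stretches of Hspa1a and Hspa1b. A match of letters is not evidence of binding, and other arrangements of the GAA and TTC units were not searched. Hmox1, Fosl1, Egr1 and Myc are not in the table used.

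Several genes of the integrated stress response rose. In the combined list 9 of 25 tested genes rose and 3 fell (median 0.89), which is 36% and 12% against 8.35% and 14.5% of all genes. Atf4, the transcription factor at its centre, was at 0.46, 1.07, 0.73 and 0.51 in Control and 2.40, 2.46, 2.45 and 1.89 in IRI+Hemin (difference 1.60, adjusted p = 1.13e-05). Its target Ddit3, the proapoptotic factor CHOP, was at -1.18, -0.44, -0.77 and -1.14 and 1.08, 0.51, 0.55 and 2.74 (difference 2.10, adjusted p = 0.00017), and the pseudokinase Trib3 rose by 2.44 (adjusted p = 3.74e-05). Asns, Chac1, Ddit4, Fgf21, Nupr1 and Sesn2 made up the rest of the risen members. Hspa5, the chaperone BiP, differed by 0.95 (adjusted p = 0.000904), under the cutoff, and by 1.11 (adjusted p = 0.000224) without Control replicate 2 and 1.09 (adjusted p = 0.000441) without IRI+Hemin replicate 3, which is past it. Pdia4, a protein disulfide isomerase, went from 1.94, 2.02, 2.10 and 2.37 to 0.52, 0.27, 0.026 and 0.59 (difference -1.76, adjusted p = 3.06e-06), and Calr and Sdf2l1 also fell, while Hsp90b1, Pdia6, Dnajb11 and Dnajc3 were not called. The IRI mean of Pdia4 was 2.14, its Hemin mean 1.0 and its IPC+IRI mean 1.03, and IRI+Hemin lay 1.79 below it (adjusted p = 8.91e-06). Atf4 and Trib3 were lower than in IRI by 0.79 and 1.25 (adjusted p = 0.00746 and 0.0125).

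Of 20 tested p53 targets, 8 rose (40%, beside 8.35% of all genes) and none fell (median 0.80). Cdkn1a led them, and Gdf15, Gadd45a, Plk3, Fas, Btg2, Trp53inp1 and Bbc3 were the others. Mdm2, which degrades p53, was 0.88 higher (adjusted p = 2.56e-06), under the cutoff, in arrays that did not overlap (-0.035, -0.14, 0.15 and -0.11 in Control and 0.77, 1.03, 0.98 and 0.61 in IRI+Hemin). Among 28 regulators of cell death, 7 rose and 1 fell (25% and 3.57%, beside 8.35% and 14.5% of all genes, and 4 and 0 with normexp). Casp4, the inflammatory caspase, had the largest rise, from -2.12, -1.61, -2.42 and -2.57 to -0.02, 0.84, 0.38 and 0.51 (difference 2.61, adjusted p = 5.51e-06). The survival factor Mcl1 rose by 1.18 (adjusted p = 1.12e-07) and the inhibitor of apoptosis Birc3 by 1.42 (adjusted p = 1.95e-07, and 0.84, adjusted p = 0.000112, not called, with normexp), while Bbc3, the killer protein PUMA, rose by 1.03 (adjusted p = 0.000767). The call of Bbc3 rested on the cutoff, since it was 0.79 (adjusted p = 0.00272) without Control replicate 3, 0.99 (adjusted p = 0.00268) without IRI+Hemin replicate 1 and 0.93 (adjusted p = 0.00311) without IRI+Hemin replicate 4. Bcl2l1 was 0.88 higher (adjusted p = 0.00138), and passed the cutoff without Control replicate 3 (1.01, adjusted p = 0.000775) or IRI+Hemin replicate 4 (1.12, adjusted p = 2.15e-05).

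Markers of the injured tubule were high in the kidneys that had received Hemin before injury. Of 21 tested, 14 rose (66.7%, beside 8.35% of all genes) and none fell, with a median of 1.45. With normexp 12 rose, and 11 rose when only genes well above background on all 8 arrays were tested. Lcn2, which encodes NGAL, was at -2.79, -3.60, -4.29 and -3.93 in Control and 0.47, -0.0067, 0.69 and -0.83 in IRI+Hemin (difference 3.74, adjusted p = 1.9e-06). Its IRI mean was 1.41, and IRI+Hemin was lower than IRI by 1.32 (adjusted p = 0.0189). Krt20, a keratin of stressed epithelium, had a difference of 9.88 (adjusted p = 6.18e-08), from -5.87, -1.32, -5.31 and -6.17 to 5.0, 6.09, 5.89 and 3.88, and in Control 1 of 4 arrays was well above background. Without that array the gene was still called (adjusted p = 1.09e-09), with no Control array left that was well above background, and with normexp the difference was 6.71 (adjusted p = 4.23e-09). The keratins Krt8, Krt18 and Krt19, the annexins Anxa1 and Anxa2, Cd44, Cryab, Gdf15, Sox9, Sprr2f, Timp1 and Vcam1 were the other risen members. Vcam1, an adhesion molecule, rose by 1.13 (adjusted p = 0.0109), was 0.59 (adjusted p = 0.0866) with normexp, and had probes from 0.12 to 2.90. Havcr1, the classical marker Kim-1, overlapped between the groups (0.66, 0.51, 0.50 and 0.53 in Control and 0.23, 0.77, 0.94 and -0.23 in IRI+Hemin), with a difference of -0.12 (adjusted p = 0.766) and probes from -0.31 to 1.36. Its IRI mean was 1.34, 0.92 above IRI+Hemin (adjusted p = 0.0293).

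Among 13 ErbB ligands and receptors, 3 rose (Areg, Hbegf and Nrg1), 23.1% beside 8.35% of all genes, and none fell. Hbegf, a ligand of the EGF receptor, was at 0.85, 0.71, 1.95 and 0.59 in Control and 4.08, 3.32, 3.45 and 4.78 in IRI+Hemin (difference 2.88, adjusted p = 2.36e-05). Areg, another such ligand, was not well above background on any Control array and well above it on 3 IRI+Hemin arrays, at least 1.97-fold higher (adjusted p = 1.3e-05), and had no rise with normexp, at -0.12 (adjusted p = 0.657). Egf itself, made by the distal tubule, was 0.77 lower (adjusted p = 2.78e-05), under the cutoff, in arrays that did not overlap (7.10, 6.85, 7.13 and 6.92 and 6.24, 6.36, 6.34 and 5.99). Its IRI mean was 6.98 and its Hemin mean 6.46, and IRI+Hemin was not told apart from Hemin (-0.23, adjusted p = 0.114). Of 30 plasminogen, matrix and wound genes, 11 rose and 3 fell (36.7% and 10%, beside 8.35% and 14.5% of all genes, and 9 and 1 with normexp). The urokinase receptor Plaur went from -1.39, -1.81, -1.44 and -1.64 to 2.04, 2.32, 2.32 and 1.59 (difference 3.63, adjusted p = 3.46e-09). It was lower than in IRI by 1.07 (adjusted p = 0.00106). Thbs1, thrombospondin 1, was not called against Control (0.12, adjusted p = 0.733) and was 2.07 below IRI (adjusted p = 3.3e-05). Cyr61 and Ctgf, now named Ccn1 and Ccn2, rose by 2.95 and 1.46 (adjusted p = 3.72e-05 and 0.000622). The collagens Col1a1 and Col3a1 and the protease Mmp2 fell, Col3a1 by 1.65 (adjusted p = 0.00421), a call that was lost in the deposited log2 matrix (-0.90, adjusted p = 0.0976) and without normalization (-1.17, adjusted p = 0.0543).

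Among the dual specificity phosphatases and other brakes of MAP kinases, 6 of 16 tested genes rose (37.5%, beside 8.35% of all genes) and none fell. Dusp8 was at -2.70, -2.08, -1.95 and -2.52 in Control and 0.41, 0.021, 0.02 and 0.31 in IRI+Hemin (difference 2.50, adjusted p = 9.03e-08), and Dusp4 rose by 1.10 (adjusted p = 1.11e-06). Dusp1, an immediate early phosphatase, overlapped with Control (0.43, adjusted p = 0.212) and was 1.26 below IRI (adjusted p = 0.00199), and Dusp6 did the same (-0.20 against Control, adjusted p = 0.391, and -0.80 against IRI, adjusted p = 0.00272). Of the metallothioneins, small metal-binding proteins, Mt1 and Mt2 rose and Mt3 and Mt4 were not called. Mt1 was at 2.41, 2.38, 2.24 and 1.63 in Control and 5.49, 5.87, 5.44 and 5.01 in IRI+Hemin (difference 3.29, adjusted p = 4.37e-09), and Mt2 was at 3.63, 3.69, 3.73 and 2.80 and 7.18, 7.68, 7.02 and 7.14 (difference 3.79, adjusted p = 3.61e-10). Their IRI means were 5.46 and 7.0 and their Hemin means 2.35 and 3.84.

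**Figure D4:**
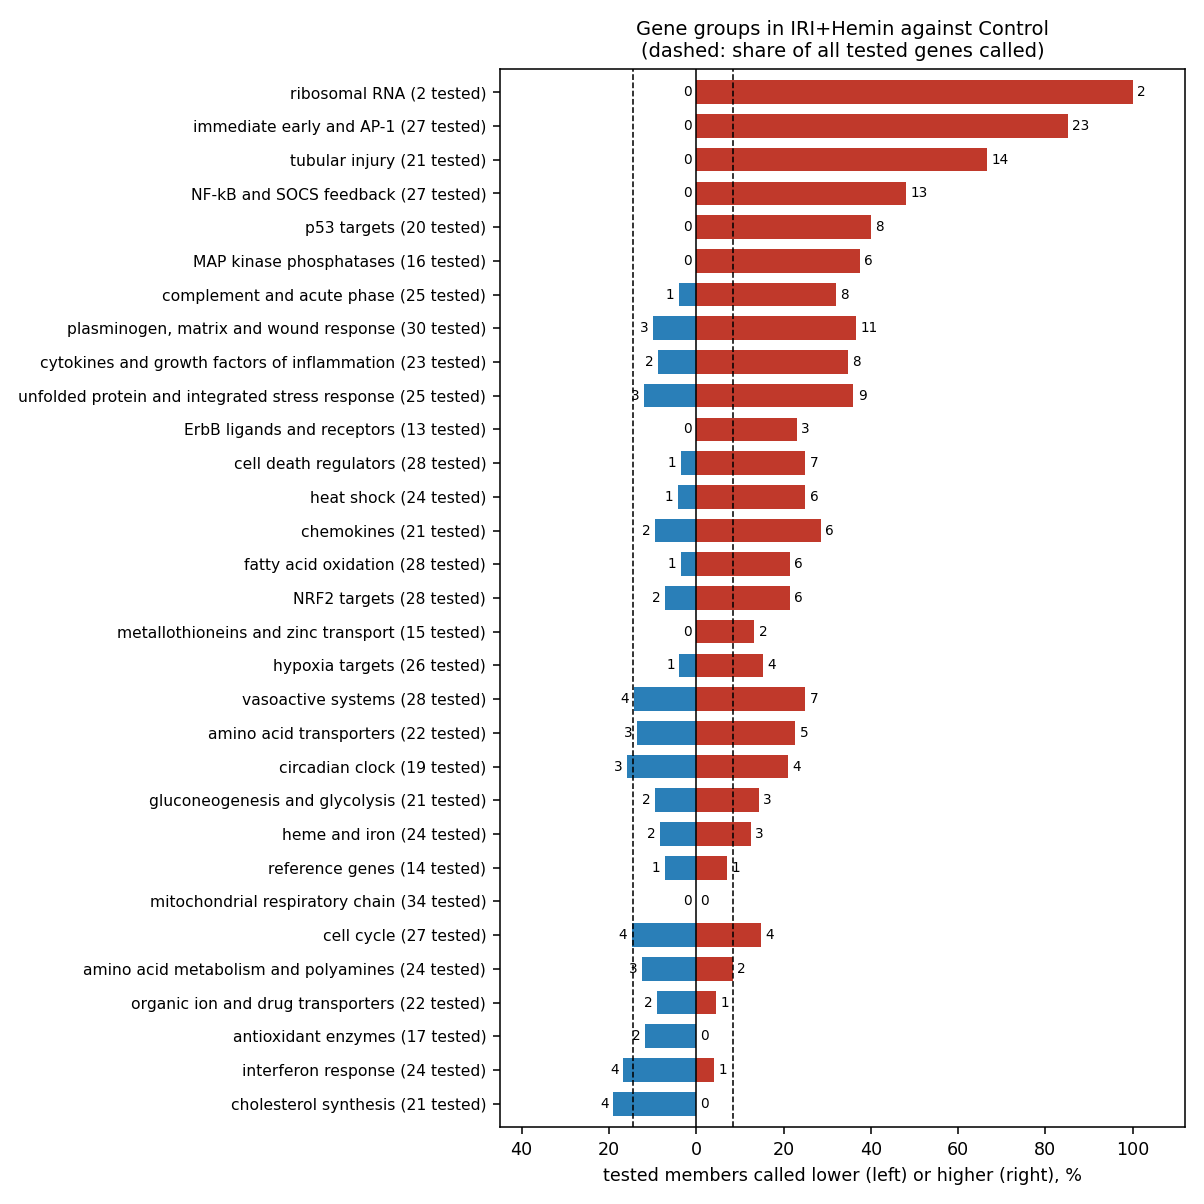
Share of the tested members of 31 gene groups called higher (red, right) or lower (blue, left) in IRI+Hemin than in Control, in percent, with the number of called genes at each bar. The dashed lines mark the share of all tested genes, 8.35% higher and 14.5% lower. Immediate early and tubular injury genes reach 85.2% and 66.7% higher with none lower, while cholesterol synthesis has 4 lower and none higher, and the respiratory chain none in either direction.

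Inflammatory mediators were raised in part. Cxcl1, which draws neutrophils, was at -4.58, -5.65, -2.50 and -4.88 in Control, well above background on 1 array, and at 2.46, 2.00, 2.99 and 2.00 in IRI+Hemin (difference 6.77, adjusted p = 3.08e-08). Il6 was not well above background on any Control array and was so on all 4 IRI+Hemin arrays, at least 6.93-fold higher (adjusted p = 1.43e-06), and IRI+Hemin lay 1.81 below IRI (adjusted p = 0.00377). With normexp its difference was 0.53 (adjusted p = 0.0786). Ccl2, which draws monocytes, was at -2.93, -2.61, -3.31 and -2.44 in Control and -0.53, 0.79, -0.25 and -0.22 in IRI+Hemin (difference 2.77, adjusted p = 6.34e-05), 2.06 below its IRI mean of 2.01 (adjusted p = 0.00146). Ccl5 was at -1.12, -1.79, -0.75 and -1.61 and -2.38, -2.21, -2.63 and -1.35 (difference -0.82, adjusted p = 0.284), with an IRI mean of 0.39 that was 2.53 higher (adjusted p = 0.00402). Il1b likewise overlapped with Control (0.57, adjusted p = 0.346) and lay 1.40 below IRI (adjusted p = 0.0307). In all, 6 of 21 chemokines rose and 2 fell, and 8 of 23 cytokine genes rose and 2 fell, beside 8.35% and 14.5% of all genes. Of the risen genes 3 chemokines and 6 cytokine genes were well above background on all 8 arrays, and of the fallen none. With normexp these were 4 and 0 chemokines and 5 and 0 cytokine genes. Against IRI, 4 of 22 chemokines (Cxcl9, Ccl2, Ccl5 and Ccl7) and 7 of 24 cytokine genes were called lower and none higher, beside 5.04% and 7.45% of all genes.

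Genes of NF-kB and of SOCS feedback were next. Of 27 tested, 13 rose (48.1%, beside 8.35% of all genes) and none fell. Nfkbia, the inhibitor that holds NF-kB in the cytoplasm, went from 2.36, 2.94, 2.97 and 2.22 to 4.89, 4.64, 4.52 and 4.76 (difference 2.08, adjusted p = 2.67e-07), and Tnfaip3, a ubiquitin-editing inhibitor of the same pathway, rose by 1.62 (adjusted p = 1.71e-06). Of 24 interferon response genes tested, Cxcl10 rose (2.06, adjusted p = 0.0021, with overlap of the groups) and Cxcl9, Oas2, Oasl2 and Usp18 fell (2 with normexp, and 2 to 3 when any 1 array was left out). The share that fell, 16.7%, was near the 14.5% of all genes. Of the same list, 8 of 24 were called lower than in IRI, where the share over all genes was 5.04%. Cxcl9, a chemokine of T cells, was at -2.79, -2.31, -1.78 and -1.86 in Control and -5.54, -2.60, -7.30 and -5.02 in IRI+Hemin, where 1 of 4 arrays was well above background (difference -2.93, adjusted p = 0.00936), and with normexp it was -0.84 (adjusted p = 0.0845).

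Several complement and acute phase genes were higher than in Control and in IRI. Of 25 tested, 8 rose against Control (32%, beside 8.35% of all genes, and 5 genes with normexp), the heme carrier Hpx fell, and 6 of 25 were called higher than in IRI (C3, Cp, Fgb, Fgg, Lbp and Saa3), beside 7.45% of all genes. The fibrinogen chain gene Fgg was at 0.52, 0.77, -0.11 and 0.53 in Control and 5.45, 3.56, 4.23 and 2.43 in IRI+Hemin (difference 3.49, adjusted p = 1.02e-05), with means of 1.10 in IRI and 1.76 in Hemin, both lower than in IRI+Hemin (differences 2.82 and 2.16, adjusted p = 0.000174 and 0.0015). The partner chain Fgb was at -1.62, -0.87, -1.92 and -1.06 and 1.78, 0.35, 0.77 and -1.0, with IRI+Hemin replicate 4 among the Control arrays (difference 1.85, adjusted p = 0.00197, and 1.88 against IRI, adjusted p = 0.00261). Fga, the other chain, rose by 1.36 (adjusted p = 0.0128) and was 1.04 (adjusted p = 0.0517) without Control replicate 2 and 1.02 (adjusted p = 0.0539) without IRI+Hemin replicate 1. The order of the 4 IRI+Hemin arrays was the same in the 3 chains, highest in replicate 1 and lowest in replicate 4. Complement C3 was at 0.34, 1.79, -0.12 and -0.082 and 2.12, 2.04, 1.72 and 2.64 (difference 1.65, adjusted p = 0.0166), with Control replicate 2 within the range of IRI+Hemin, and lost its call without Control replicate 3 (1.45, adjusted p = 0.0517) or 4 (1.46, adjusted p = 0.0509). Its probes ran from -1.07 to 1.66.

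Fatty acid oxidation genes were more often higher than lower. Of 28 tested, 6 rose (among them Acot1, Acot12, Angptl4, Cyp4a14 and Pdk4), 1 fell (Decr1), and 24 had a positive difference. The shares were 21.4% and 3.57%, beside 8.35% and 14.5% of all genes, and the median was 0.47, against -0.10 for all genes and 0.12 for the brightest of their 4 groups by level. Ppara, the receptor that controls them, was 0.82 higher (adjusted p = 0.00508), under the cutoff. The coactivator Ppargc1a was at 1.29, 1.53, 1.05 and 1.13 in Control and 1.66, 2.12, 2.14 and 2.47 in IRI+Hemin (difference 0.85, adjusted p = 0.0011), and 1.71 above its IRI mean of 0.39 (adjusted p = 4.89e-06). Cpt1a, the gate of fatty acids into mitochondria, was not called (0.075, adjusted p = 0.704). No gene of 34 tested in the respiratory chain was called in either direction, and their differences lay between -0.40 and 0.65. Cholesterol synthesis had 4 of 21 genes lower (Dhcr7, Hmgcs1, Idi1 and Nsdhl) and none higher, 19% beside 14.5% of all genes, with a median of -0.52. Idi1, which isomerises the isoprenoid precursor, went from 2.42, 2.74, 2.07 and 2.74 to 0.91, 0.98, 0.59 and 1.52 (difference -1.49, adjusted p = 4.1e-05), and Hmgcs1 fell by 1.23 (adjusted p = 0.000174) but was -0.33 (adjusted p = 0.825) in the authors' deposited log2 matrix. Both were lower than in IRI (-0.90 and -1.0, adjusted p = 0.00475 and 0.00169) and in Hemin (-1.31 and -1.02, adjusted p = 0.000271 and 0.00147).

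G6pc and Fbp1, enzymes of gluconeogenesis in the proximal tubule, were not called (-0.61 and -0.12, adjusted p = 0.0875 and 0.644). The amino acid transporter Slc7a12 was at -1.16, 0.11, -0.69 and 0.65 in Control and 1.68, 3.38, 2.66 and 1.78 in IRI+Hemin (difference 2.65, adjusted p = 0.000633) and 3.55 above IRI (adjusted p = 9.41e-05), while its Hemin mean of 1.25 was not told apart from IRI+Hemin (adjusted p = 0.11). Slc36a1, a proton-coupled transporter of the lysosome and brush border, fell from 1.58, 1.05, 1.53 and 1.65 to -0.54, -1.10, -1.17 and -0.70 (difference -2.33, adjusted p = 9.22e-08). Of 22 amino acid transporters, 5 rose and 3 fell (4 and 2 with normexp, and 22.7% and 13.6% beside 8.35% and 14.5% of all genes), and 3 rose without Control replicate 2 or IRI+Hemin replicate 4. Among drug and organic ion transporters the efflux pump Abcb1b rose by 1.21 (adjusted p = 0.000122, and 0.71, adjusted p = 0.00232 with normexp) and the uptake transporters Slc22a8 and Slco1a1 fell. Slc22a8, which carries organic anions, was at 2.85, 2.41, 3.51 and 3.28 in Control and 1.55, 1.76, 1.5 and 1.51 in IRI+Hemin (difference -1.43, adjusted p = 1.33e-05), with Hemin at 1.43, IPC+IRI at 1.3 and IRI at 2.93, whereas its relative Slc22a6 differed by -0.20 (adjusted p = 0.362).

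Of 28 vasoactive genes 7 were higher and 4 lower (2 and 2 with normexp), that is 25% and 14.3%, beside 8.35% and 14.5% of all genes. Nos3, the nitric oxide synthase of endothelium, was at -1.78, -1.43, -1.63 and -1.47 in Control and 0.87, 1.06, 0.62 and 0.29 in IRI+Hemin (difference 2.29, adjusted p = 1.47e-07). Edn1, which encodes the constrictor endothelin 1, rose by 1.56 (adjusted p = 0.000104, and 0.48, adjusted p = 0.0145 with normexp), and adrenomedullin (Adm), a dilator, by 1.47 (adjusted p = 2.38e-07). The angiotensin receptor gene Agtr1b fell from -1.14, -1.61, -0.93 and -1.39 to -3.30, -3.39, -3.56 and -3.95 (difference -2.28, adjusted p = 0.000208), with an IRI mean of -4.34. Ptgs2, cyclooxygenase 2, was not well above background on any Control array and well above it on all IRI+Hemin arrays, at least 2.28-fold higher (adjusted p = 0.000235), and had no rise with normexp, at -0.018 (adjusted p = 0.944). Among 26 hypoxia targets 4 rose and 1 fell (15.4% and 3.85%, beside 8.35% and 14.5% of all genes), 2 rose with normexp, and with single arrays left out 1 to 6 rose. Hif1a itself was not called (0.10, adjusted p = 0.571) and lay 0.98 below IRI (adjusted p = 3.72e-05), and Vegfa was 0.72 lower (adjusted p = 0.000455), under the cutoff.

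Clock genes depend on the hour of sampling, which no source used here gives. Per1 rose by 1.66 (adjusted p = 0.0024), and Csnk1e, a kinase of PER proteins, by 2.33 (adjusted p = 4.26e-08), although its probes ran from -1.60 to 2.37. Dbp, a clock output gene, split the Control arrays into 5.86 and 5.52 (replicates 1 and 3) and 2.74 and 2.98 (replicates 2 and 4), beside 2.89, 2.76, 2.60 and 2.10 in IRI+Hemin. Its difference of -1.68 (adjusted p = 0.0177) lost its call without Control replicate 1 (-1.15, adjusted p = 0.0795) or 3 (-1.27, adjusted p = 0.0736). Tef, a related output gene, was split in the same way (2.01 and 2.04 against 0.79 and 0.79 in Control). In the cell cycle list 4 of 27 genes rose (Cdk6, Cdt1, Pcna and Spag5) and 4 fell (Ccna2, Cdk2, Mki67 and Rrm2), against 2 and 0 with normexp. The share that rose was 14.8%, beside 8.35% of all genes, and the share that fell, 14.8%, was near the 14.5% of all genes. Cdt1, which licenses replication origins, went from 0.62, 0.54, 0.51 and 0.51 to 1.77, 2.04, 2.14 and 1.54 (difference 1.32, adjusted p = 2.58e-06), and Rrm2, which supplies deoxynucleotides, fell by 1.65 (adjusted p = 0.00258, and -0.80, adjusted p = 0.0162 with normexp). Of 14 reference genes tested, Hprt1 (now Hprt) rose, at 2.86, 3.78, 2.88 and 2.89 in Control and 4.29, 4.21, 4.22 and 4.26 in IRI+Hemin (1.14, adjusted p = 9.84e-06), with a Hemin mean of 4.07, and Polr2a fell by 1.06 (adjusted p = 1.2e-05) to the Hemin level (-0.045 against Hemin, adjusted p = 0.823), narrowly past the cutoff and -0.70 (adjusted p = 0.0016) with normexp. Gapdh and Ppia differed by -0.52 and 0.078 (adjusted p = 0.0016 and 0.662).

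The segments of the nephron were followed by marker genes. In whole tissue, fewer cells of a type and less RNA per cell cannot be told apart. Of 29 proximal tubule markers, 1 rose and 4 fell (1 and 2 with normexp), that is 3.45% and 13.8%, beside 8.35% and 14.5% of all genes. All 29 were well above background on all 8 arrays. In the brightest of the 4 groups of genes by level, 7.57% were called higher and 2.94% lower, with a median of 0.12. The median of the markers was -0.36, and without the fold cutoff 3 were higher and 13 lower. Their summed linear level was 1340 to 1590 in Control and 1140 to 1840 in IRI+Hemin. The phosphate transporter Slc34a1 was at 7.54, 7.30, 7.73 and 7.5 and 6.45, 6.64, 6.37 and 6.78 (-0.96, adjusted p = 1.57e-05), just under the cutoff, which it passed without Control replicate 2 (-1.03, adjusted p = 1.33e-05) or IRI+Hemin replicate 4 (-1.03, adjusted p = 1.67e-05), and it was 0.91 below IRI (adjusted p = 6.2e-05). The endocytic receptors Lrp2 and Cubn were 0.61 and 0.36 lower (adjusted p = 6.17e-05 and 0.0627). The sulfate transporter Slc13a1 was at 2.27, 2.65, 2.45 and 2.40 and 3.74, 3.44, 3.50 and 3.28 (difference 1.04, adjusted p = 4.02e-05), above IRI by 1.59 (adjusted p = 2.8e-06). It stood at the cutoff and was 0.99 (adjusted p = 0.000238) without Control replicate 1 and 0.96 (adjusted p = 0.000216) without IRI+Hemin replicate 1. Of 14 markers of the thick ascending limb 1 fell (7.14%, beside 14.5% of all genes) and none rose. Bsnd, a chloride channel subunit, fell by 1.15 (adjusted p = 0.000144), which was -0.70 (adjusted p = 0.0127) and not called with normexp. Umod and Slc12a1 were not called (0.31 and -0.20, adjusted p = 0.107 and 0.35).

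Distal convoluted tubule markers had 4 of 14 lower (28.6%, beside 14.5% of all genes) and 1 higher. Pvalb, a calcium-binding protein, was at -0.95, -0.44, -0.72 and -1.01 in Control and -3.39, -1.89, -2.85 and -2.84 in IRI+Hemin (difference -1.96, adjusted p = 1.42e-05), and the sodium/calcium exchanger Slc8a1 at -1.16, -0.54, -0.89 and -0.69 and -2.93, -2.31, -3.03 and -2.87 (difference -1.97, adjusted p = 1.81e-06). Pvalb and Slc8a1 lay below IRI by 1.67 and 1.03 (adjusted p = 0.000151 and 0.00138) and below Hemin by 1.56 and 1.46 (adjusted p = 0.000251 and 7.36e-05). The calcium channel Trpv6 rose by 1.84 (adjusted p = 4.58e-06, and 0.62, adjusted p = 0.00487 with normexp), and the segment's defining cotransporter Slc12a3 was not called (0.32, adjusted p = 0.212). The summed level of the list was 86.6 to 122 in Control and 65.3 to 72.0 in IRI+Hemin. In the collecting duct, 4 of 23 markers rose and 3 fell (1 and 3 with normexp), or 17.4% and 13.0%, beside 8.35% and 14.5% of all genes. Sgk1, a kinase that activates the sodium channel ENaC, rose by 2.70 (adjusted p = 2.71e-05, probes from -2.11 to 2.71), and the proton pump subunit Atp6v0d2 fell from 0.46, -0.086, 0.47 and 0.65 to -1.15, -1.02, -1.19 and -1.28 (difference -1.53, adjusted p = 1.47e-07). The Hemin and IPC+IRI means of Atp6v0d2 were -0.98 and -0.63 and its IRI mean 0.073. Aqp2, the water channel under vasopressin, rose by 1.05 (adjusted p = 0.00684) and was 0.96 (adjusted p = 0.0204) without Control replicate 2 and 0.94 (adjusted p = 0.0231) without IRI+Hemin replicate 1. Among 15 podocyte markers 3 fell (20%, beside 14.5% of all genes), Tcf21 among them, and 1 fell with normexp or without IRI+Hemin replicate 4, whereas Nphs1 was not called (-0.021, adjusted p = 0.907).

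Endothelial markers had 4 of 22 higher (Flt1, Nos3, Rasip1 and S1pr1) and 1 lower, that is 18.2% and 4.55%, beside 8.35% and 14.5% of all genes, and without normalization between arrays 10 were higher. The transcription factor Sox18 fell from 0.23, -0.33, 0.045 and 0.78 to -1.74, -1.08, -1.13 and -2.28 (difference -1.74, adjusted p = 0.00314), and Pecam1 and Cdh5 were not called (0.38 and 0.10, adjusted p = 0.359 and 0.782). The summed level was 50.2 to 60.8 in Control and 70.2 to 81.4 in IRI+Hemin.

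Of 12 neutrophil markers tested, 7 rose (58.3%, beside 8.35% of all genes) and none fell, and 3 rose with normexp. Of 17 on the array 4 were well above background on all 8 arrays and 2 of these rose, S100a9 and Lcn2, which is also in the list of injured tubule genes, while the other 5 risen markers passed the filter on low values through IRI+Hemin alone. The summed level of the list was 0.789 to 1.07 in Control, 3.17 to 11.7 in IRI+Hemin and 6.50 to 13.1 in IRI. S100a9, a calcium-binding protein that neutrophils hold in bulk, was at -2.66, -1.32, -1.25 and -1.66 in Control and 2.16, 3.03, 2.52 and 0.89 in IRI+Hemin (difference 3.87, adjusted p = 9.48e-06), and its partner S100a8 at -5.21, -4.55, -3.44 and -4.01 and -0.79, 0.15, -0.38 and -2.19 (difference 3.50, adjusted p = 0.000226). IRI+Hemin replicate 4 was the lowest of its group in both. Retnlg was not well above background on any Control array and at least 7.45-fold higher in IRI+Hemin (adjusted p = 4.28e-06), and it was 0.62 (adjusted p = 0.0569) with normexp. Macrophage markers had 5 of 18 higher (Cd14, Cd68, Ctss, Itgam and Msr1) and 2 lower (Aif1 and Cx3cr1), that is 27.8% and 11.1%, beside 8.35% and 14.5% of all genes, against 2 and 0 with normexp. Itgam and Msr1 passed the filter on low values through IRI+Hemin alone and Cx3cr1 through Control alone, and 3 rose without IRI+Hemin replicate 2. The markers had a summed level of 7.54 to 11.8 in Control and 16.1 to 25.6 in IRI+Hemin. Cd14, a receptor of bacterial lipopolysaccharide, went from -0.77, -1.03, -1.33 and -1.24 to 1.70, 2.24, 1.96 and 0.93 (difference 2.80, adjusted p = 7.36e-07), while Emr1 (now Adgre1, a surface antigen of resident macrophages) and Csf1r were not called (0.17 and -0.063, adjusted p = 0.758 and 0.737).

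Of 15 lymphocyte markers tested, 10 fell and none rose, and 7 to 9 fell when any 1 array was left out. The share that fell was 66.7%, beside 14.5% of all genes and 31.8% of the dimmest of the 4 groups by level. Of 21 on the array 7 were well above background on all 8 arrays and 4 of these fell, while 5 of the other fallen markers passed the filter on low values through Control alone. The list had a summed level of 1.72 to 1.93 in Control and 0.688 to 1.08 in IRI+Hemin. Cd2, an adhesion receptor of T cells, was not well above background on any IRI+Hemin array, at least 3.98-fold lower (adjusted p = 0.00121), and Cd3e was not called (-0.42, adjusted p = 0.154). These are dim genes, of the level at which lower calls were frequent, and with normexp none of the 10 was called. In the other lists, adrenal genes went both ways (Akr1b7 and Star higher, Dbh, Hsd3b1 and Mc2r lower), with Cyp11a1 not well above background on any of the 8 arrays, and the hemoglobin genes Hba-a1 and Hbb-b1 were not called (0.35 and 0.21, adjusted p = 0.594 and 0.735). The adipose genes Adipoq and Fabp4 differed by 1.96 and 1.56 (adjusted p = 0.55 and 0.0681), and Fabp4 by 2.43 (adjusted p = 0.00122) without Control replicate 2. The summed adipose level ranged over 14.2 to 126 in Control and 24.2 to 89.1 in IRI+Hemin. Skeletal muscle genes had 3 of 9 lower (Atp2a1, Myh2 and Pvalb, which is also counted in the distal convoluted tubule), that is 33.3% beside 14.5% of all genes, and 1 lower with normexp, and Ckm was not well above background on any of the 8 arrays.

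**Figure D5:**
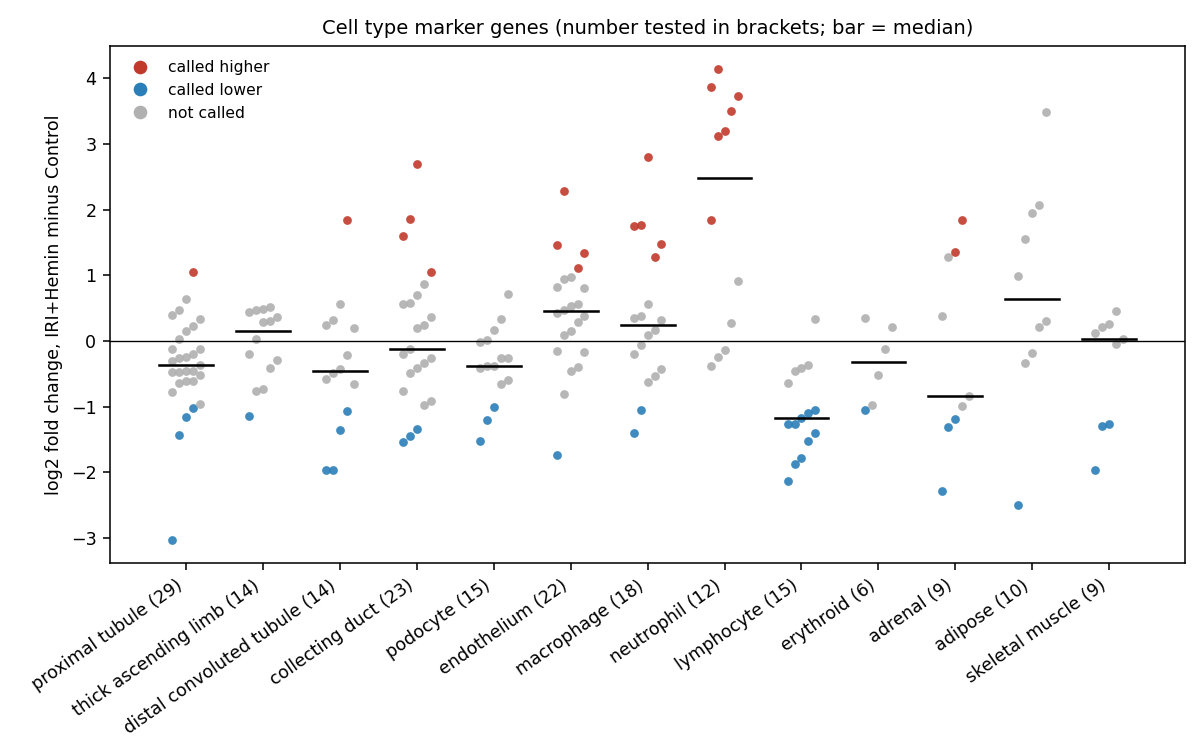
Log2 fold change of IRI+Hemin minus Control (vertical axis) for every tested marker gene of 13 cell types or tissues, with the number tested in brackets and a bar at the median. Red dots were called higher, blue dots lower and grey dots neither. Neutrophil markers reach from -0.38 to 4.13 with 7 of 12 called higher, and 10 of 15 lymphocyte markers were called lower, down to -2.13. Of all tested genes, 8.35% were called higher and 14.5% lower.

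The genes that set IRI+Hemin furthest apart from IRI, while being called the same way against Control, included genes with the arrangement over slides described above. Lars2 was 4.63 above IRI (adjusted p = 0.000138), and the transcripts BU515353 and TC1665684, named here by their identifiers and not well above background on any IRI array, were at least 13.7-fold and 8.45-fold above it (adjusted p = 2.86e-05 and 1.2e-06). Against Control, both lost their call with normexp, at 0.80 (adjusted p = 0.0381) and 0.59 (adjusted p = 0.0717). Against Hemin, Lars2 and BU515353 differed by -0.22 and 0.43 (adjusted p = 0.835 and 0.549), whereas TC1665684 lay 2.03 above it (adjusted p = 0.00038). Trim55, a ubiquitin ligase of muscle, was at -3.87, -1.99, -4.22 and -4.35 in Control and -0.04, 0.041, 0.011 and -1.72 in IRI+Hemin (difference 3.18, adjusted p = 2.89e-05), and it was above IRI by 4.17 and above Hemin by 2.39 (adjusted p = 6.9e-06 and 0.000763). Replicates 4 of IRI+Hemin and 2 of Control lay close together, at -1.72 and -1.99. AK079630 was above Control by 2.63 and above Hemin by 4.2 (adjusted p = 0.00113 and 3.09e-05), in each of which 1 array was well above background, and at least 7.75-fold above IRI, where none was (adjusted p = 2.28e-05). With normexp its difference from Control was 0.46 (adjusted p = 0.163). Its IPC+IRI mean was -6.31, which leaves IRI+Hemin with the highest mean of the 5 groups. On the lower side, Akr1d1, a steroid reductase, was at -1.29, -2.47, -1.33 and -0.68 in Control and -3.43, -5.88, -3.99 and -5.08 in IRI+Hemin (difference -3.15, adjusted p = 1.23e-05) and lay 3.25 below IRI (adjusted p = 2.63e-05). Ak3l1 lay 3.12 below IRI and 2.79 below Hemin (adjusted p = 0.000129 and 0.000329). Slc4a7 and Sod3 lay 3.21 and 2.87 below IRI (adjusted p = 7.99e-05 and 2.27e-06) and differed from Hemin by 0.87 and -0.10 (adjusted p = 0.164 and 0.798), and Cxcl9 lay 3.32 below IRI (adjusted p = 0.00589).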

How the data were processed

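Total kidney RNA was labelled with Cy3 and hybridised to 20 one-colour Agilent 4x44K whole mouse genome arrays, 4 per group, of which 8 are compared here. The deposited scanner files hold the processed signal intensity of each spot, background-subtracted by the authors with Feature Extraction 9.5.3.1 (the version of the headers), and a flag for spots well above background. The authors' deposited matrix of log2 values, with 18.1% blank cells, was used as an alternative. The arrays' number limits the precision.

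Control spots and outlier spots were left out, spots of a probe were averaged, and log2 of the intensity minus the log2 of the array's 75th percentile was taken. Probes of a gene were summarised as the log2 of their mean linear value. Gene names are those of the array's design, and 16693 of 27827 are current symbols in the RefSeq annotation. A gene was tested if it was well above background on at least 3 of 4 arrays of either group, with at most 1 missing value. Group means were fitted to all 20 arrays (15 residual degrees of freedom) with limma 3.58.1 in R 4.3.3 (files read with data.table, version 1.17.8), with Benjamini-Hochberg adjustment over all tested genes. Calls needed an adjusted p below 0.05 and a change of at least 2-fold. The code was tested on simulated data.

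The text names the 10 largest rises and falls among called genes well above background on all 8 arrays whose groups did not overlap and whose names are symbols or synonyms in RefSeq, the 5 genes in each direction furthest from IRI that were called the same way against Control, and, of each gene list, its key genes and the called members with the largest rise and fall. Other list members are named only to spell out a count. Some genes that these rules pick are not reported here. The lists and rules were chosen with earlier results of these data known. For a gene not well above background on any array of a group, the fold is a bound against the dimmest signal that was well above background. Alternatives were the background correction (normexp, offset 50), the normalization, the summary of probes, the filters, the fold cutoff, SAM (the authors' method), the replicate number as a block, and leaving out single arrays. A slide as a random block could not be fitted. The labelled RNA amount differs between the labels and the methods, and no probe sequence is printed.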

Additional observations from a re-analysis of the deposited data

Results flagged for a closer look

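In 31 of 374 groups of 4 arrays checked for the named genes, 1 array lay far from the other 3 by Dixon's test of the gap. Of these, 16 were in Control and 15 in IRI+Hemin, and chance alone flags about 1 group in 20. All values are log2 expression.

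Control replicate 2 was the array apart in most of the Control cases. It was above the other Control arrays in Lars2 (8.98), Fabp4 (5.46), Hprt1 (3.78), Hspa1a (2.96), Adipoq (2.46), Tnfrsf12a (0.92), the ribosomal RNA gene LOC236598 (-0.46), BU515353 (-1.96) and Serpina3n (-3.24), and below them in Cat (5.69), Gclm (1.60), Slc4a7 (1.19) and Tbp (-2.09). In 8 of these 13 genes (Lars2, LOC236598, Hprt1, BU515353, Slc4a7, Cat, Gclm and Tbp) the means of the groups scanned later all lay on 1 side of those of IRI and the other Control arrays, and Control replicate 2 was displaced to that side in each. It was nearer the mean of the later arrays than that of the other first-day arrays in 7 of them, Cat being the exception. Control replicate 4 was apart in Mt2 (2.80, lower) and Il1b (-2.63, higher), and Control replicate 3 in Edn1 (-3.81, lower).

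In IRI+Hemin, replicate 4 was apart in Atf4 (1.89, lower), Hspb1 (1.86, lower), Trim55 (-1.72, lower), Edn1 (-2.71, lower), Rrm2 (-3.86, lower), Cx3cr1 (-4.15, higher) and Cd22 (-4.89, higher). In all of these but Rrm2 it lay on the side of the Control arrays. Replicate 2 was apart in Hsph1 (4.19, higher), LOC236598 (0.43, higher), Cubn (4.21, lower) and Ak3l1 (-3.02, lower), replicate 1 in Trib3 (0.11, higher), Dusp6 (2.69, lower) and Areg (-5.45, lower), and replicate 3 in Fth1 (7.47, lower).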

How the results depend on the processing

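The counts of genes called higher and lower, 1543 and 2674, were 665 and 448 with normexp background correction, 652 and 417 with normexp and only genes well above background on all 8 arrays (chosen after seeing the data), 3674 and 1234 with no normalization between arrays, 4513 and 6142 with no fold cutoff, 618 and 1075 at 3-fold, and 835 and 1497 by SAM. The strict filter on dim genes alone left 1079 higher and 1499 lower. Leaving out single arrays gave 1363 to 1790 higher and 2446 to 2852 lower genes. Without the filter on dim genes 3969 were lower. The split of called genes depended on the scaling, with 36.6% higher as reported, 46.8% after quantile normalization (1874 and 2128), 74.9% without normalization and 59.7% with normexp, and the median difference over all genes was 0.38 without normalization, against -0.10. With the 75th percentile taken over probes well above background on all 20 arrays, 28.6% were higher (1284 and 3205), and the deposited log2 matrix gave 1191 and 2064.

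With the replicate number as a block the counts were 1540 and 2665, and the adjusted p of Ccnd1 went from 0.0393 to 0.0505 (difference -0.53 in both). The labels share only a number, since deviations of same-numbered arrays correlated at 0.0946, 0.105, 0.0388 and -0.00351.

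Directions turned for Gpx3 with no normalization (0.016, adjusted p = 0.958), for Ptgs2 (-0.018, adjusted p = 0.944), Areg (-0.12, adjusted p = 0.657) and Il8rb (-0.12, adjusted p = 0.689) with normexp, and for Slc22a6 (2.83, adjusted p = 0.00998) and Slc13a1 (-5.52, adjusted p = 0.0636) in the deposited log2 matrix, and the cause was not tested. Of the named genes called higher, 17 lost their call with normexp and 67 kept it, and of those called lower, 18 lost it and 31 kept it. Of genes named in the text, those that lost it with normexp include Atp2a1, Decr1, Hpx, Il6, Polr2a, Rrm2 and Steap3. In the deposited log2 matrix Slc4a7, Dbp, Col3a1, Hmgcs1 and Sgk1 had an adjusted p above 0.05, and with no normalization Gclm, Dbp, Sox18, Col3a1, Hpx, Decr1 and Atp2a1. Without Control replicate 2 the call was kept by 80 and 47 of them and lost by Aqp2, Egr1, Fga, Jund, Car3 and Cd22. The signal over background limits the genes of low level, for which lower calls were frequent. Each group lay on 1 slide, so no value within a slide or scan day can be given for this comparison.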

Other observations

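Serpina3n, an acute phase protease inhibitor, was at -6.32, -3.24, -6.69 and -6.16 in Control, well above background on 1 array, and at -1.53, -0.46, -2.48 and -3.32 in IRI+Hemin (difference 3.65, adjusted p = 0.00514), with a Hemin mean of -6.31 and an IRI mean of -2.40. With normexp it was 0.74 (adjusted p = 0.091). Eno1, the glycolytic enolase, went from 2.36, 1.88, 2.88 and 2.61 to 1.79, -1.07, 1.51 and -0.59 (difference -2.02, adjusted p = 0.000988) and was also below IRI (-1.94, adjusted p = 0.00218), with IRI+Hemin replicates 2 and 4 lowest. Hk2, a hexokinase, rose by 1.95 (adjusted p = 0.038), was 0.71 (adjusted p = 0.15) with normexp, and lost its call without any of 4 single arrays, with 1.38 (adjusted p = 0.144) without Control replicate 3, 1.47 (adjusted p = 0.132) without Control replicate 4, 1.46 (adjusted p = 0.129) without IRI+Hemin replicate 2 and 2.05 (adjusted p = 0.0515) without IRI+Hemin replicate 3.

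Tnfsf12, which encodes TWEAK, the ligand of the receptor gene Tnfrsf12a, was at -2.64, -3.49, -2.90 and -3.37 in Control and -5.77, -4.33, -4.99 and -5.01 in IRI+Hemin, well above background on 2 of its arrays (difference -1.92, adjusted p = 0.000127), while the receptor rose by 5.55. With normexp the ligand was -0.59 (adjusted p = 0.0665). The intercalated cell markers Slc4a1 and Atp6v1g3 were lower without passing the cutoff, the former by 0.98 (adjusted p = 0.0192) and the latter by 0.92 (adjusted p = 4.9e-05), in the latter case with no overlap of the arrays. Among reference genes, Actb was 0.85 higher and Tbp 0.84 lower (adjusted p = 0.00308 and 0.00034), and without Control replicate 2 both passed 2-fold, at 1.07 (adjusted p = 0.000209) and -1.02 (adjusted p = 1.81e-05).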
